A study of Mus musculus with 24 samples.

Results

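The mitochondrial genome of the mouse lung was followed through warm ischemia and reperfusion. All rows of the deposited table that lie on chromosome M were taken and summed by gene symbol, which gave 37 genes of 45777 in the table: 13 mRNAs, 2 ribosomal RNAs and 22 tRNAs. The mitochondrial genome was chosen with earlier results known, in which its transcripts were lower in young reperfused lungs. For the mitochondrial genes, contrasts of those libraries with young sham or with old libraries of the same time are therefore given as descriptions. No p is printed for these genes there, and their counts of calls support nothing. The other 5 comparisons were tested for them. For nuclear genes p-values from all contrasts are printed, and the nuclear lists, too, were chosen with earlier results known.

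The 24 libraries were stranded, poly(A)-selected RNA-seq libraries from lungs of male C57BL/6J mice, in 6 groups of 4. Ages were 8 to 12 weeks for the young and 22 to 24 months for the old mice. In the reperfused groups the left hilum, where the airway and vessels enter the lung, was clamped for 60 min, and the lung was then reperfused for 1 h (young 1 h, old 1 h) or 1 day (young 1 day, old 1 day). Young sham and old sham lungs are the controls of the same age, and the time at which they were taken is not stated. The labels do not say that libraries of a group came from separate animals, so the spread behind each p-value is that between libraries and may be technical. Replicate 3 of old sham and replicate 3 of young 1 day stood apart from their groups in several of the values below. Library totals were 27850677 to 44504824 estimated reads. The summed level of 5 markers of type 2 cells, the surfactant-making cells of the alveolus, was 7578 to 29220 CPM (counts scaled by library size) over the 24 libraries, with differences between groups given with the other markers.

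Mitochondrial DNA is transcribed from both strands into long precursor RNAs. The tRNAs lie between most of the other genes, and cutting them out of the precursor frees the mRNAs and rRNAs. The mRNAs encode subunits of the respiratory chain and of ATP synthase: ND1 to ND6 and ND4L for complex I, CYTB for complex III, COX1 to COX3 for complex IV, and ATP6 and ATP8 for ATP synthase. ATP8 and ATP6 are read from a shared mRNA, as are ND4L and ND4. ND6 is the only mRNA taken from the opposite strand, and in human mitochondria it lacks a poly(A) tail. Mitochondrial mRNAs are polyadenylated by Mtpap and kept stable by Lrpprc with Slirp.

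All 37 genes matched the GRCm38 annotation (GENCODE vM21) in start, end and strand. Of the 13 mRNAs, 12 lie on the plus strand and ND6 (chrM:13552-14070) on the minus strand. Both rRNAs and 14 tRNAs are on the plus strand and 8 tRNAs on the minus strand. ATP8 (chrM:7766-7969) and ATP6 (chrM:7927-8607) share 43 bases, ND4L (chrM:9877-10173) and ND4 (chrM:10167-11544) share 7 bases, and ND5 (chrM:11742-13565) shares 14 bases with ND6 on the opposite strand. Whether the counting used strand is not given in the sources used here, so reads in such overlaps cannot be assigned with certainty. The 13 mRNAs were 204 to 1824 bases long, with 31.9% G and C in ATP8 and 41.1% in ND4L at the ends of their range.

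The following mRNAs mark the ends of the range of change described below: ND6, ATP8 and ND2, which were 3 of the 4 lowest relative to sham in young reperfused lungs, and COX1 and COX3, which were among the 3 closest to sham. ATP8 is whole at 204 bases, and the first 204 bases of the other genes are shown from GENCODE vM21 (GRCm38), 5′ to 3′ in the sense of the mRNA, as DNA letters. Capitals mark G and C. The change is set below against the GC content of whole transcripts, not of these stretches. The stretches are chrM:7766-7969 for ATP8, chrM:3914-4117 for ND2, chrM:13867-14070 on the minus strand for ND6, chrM:5328-5531 for COX1 and chrM:8607-8810 for COX3, the other 4 on the plus strand. G and C make up 31.9% of the ATP8 stretch, 39.2% of ND2, 30.9% of ND6, 37.8% of COX1 and 38.7% of COX3. Whole transcripts have 35.7% in ND2, 34.1% in ND6, 39.9% in COX1 and 38.9% in COX3, so the stretches are in another order.
ATP8: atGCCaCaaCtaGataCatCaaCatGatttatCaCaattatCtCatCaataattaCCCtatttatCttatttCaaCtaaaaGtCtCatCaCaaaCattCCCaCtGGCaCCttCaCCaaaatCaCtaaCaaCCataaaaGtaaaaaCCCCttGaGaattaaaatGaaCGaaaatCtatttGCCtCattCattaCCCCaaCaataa
ND6: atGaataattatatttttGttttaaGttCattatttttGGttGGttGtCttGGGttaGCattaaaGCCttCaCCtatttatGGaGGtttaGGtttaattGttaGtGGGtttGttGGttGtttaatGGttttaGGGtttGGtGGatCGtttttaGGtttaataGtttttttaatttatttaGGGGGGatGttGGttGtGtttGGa
ND2: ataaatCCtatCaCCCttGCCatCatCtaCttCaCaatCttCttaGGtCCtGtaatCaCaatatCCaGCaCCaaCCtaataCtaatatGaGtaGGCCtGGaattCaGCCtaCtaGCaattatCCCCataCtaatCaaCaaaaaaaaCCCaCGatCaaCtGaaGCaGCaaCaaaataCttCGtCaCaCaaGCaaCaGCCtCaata
COX1: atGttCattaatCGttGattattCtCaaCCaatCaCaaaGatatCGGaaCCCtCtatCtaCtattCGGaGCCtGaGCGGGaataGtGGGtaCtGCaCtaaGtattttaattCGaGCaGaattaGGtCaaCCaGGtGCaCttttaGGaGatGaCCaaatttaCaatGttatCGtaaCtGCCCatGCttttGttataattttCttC
COX3: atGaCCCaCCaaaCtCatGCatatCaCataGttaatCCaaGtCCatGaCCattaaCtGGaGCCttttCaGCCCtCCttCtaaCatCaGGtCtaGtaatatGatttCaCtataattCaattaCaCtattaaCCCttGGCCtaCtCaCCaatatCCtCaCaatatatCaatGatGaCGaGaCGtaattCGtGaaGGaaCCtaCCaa

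The mitochondrial share of all counts was lower in each young reperfused library than in each other library. In young sham it was 2.75%, 2.68%, 3.44% and 2.85% of the library (mean 2.93% ± 0.347, SD, n = 4). In young 1 h lungs it was 1.53%, 1.39%, 1.43% and 1.08%, and in young 1 day lungs 0.941%, 1.11%, 1.47% and 0.776%. These 2 groups overlap each other and lie below young sham without overlap, 2.17-fold lower at 1 h and 2.79-fold lower at 1 day. These contrasts belong to those behind the choice and are a description.

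In old lungs the share was 4.07%, 3.98%, 3.21% and 4.01% in old sham, and 3.29%, 4.38%, 3.62% and 3.28% in old 1 h. In old 1 day it was 3.17%, 2.95%, 2.80% and 2.53%. Old 1 h overlaps old sham, while every old 1 day library is below every old sham and old 1 h library. In a 2-sided exact permutation test on log2 shares, adjusted over 5 comparisons, old 1 day was 1.33-fold below old sham (exact p = 0.0286, the smallest that 4 against 4 allows, adjusted p = 0.0714). Old 1 day was 1.27-fold below old 1 h with the same p values, and young 1 day was 1.29-fold below young 1 h (exact p = 0.2, adjusted p = 0.25). Old sham was 1.30-fold above young sham (exact p = 0.0571, adjusted p = 0.0952), and old 1 h was 1.05-fold below old sham (exact p = 0.6). None of the 5 passed 0.05 after adjustment. Counting error was small beside these differences, at most 0.0071 percentage points on either side (95% Wilson interval, counting error only). In bulk lung, fewer cells rich in mitochondria, less mitochondrial RNA per cell and a difference in library preparation or RNA quality cannot be told apart.

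**Figure D1:**
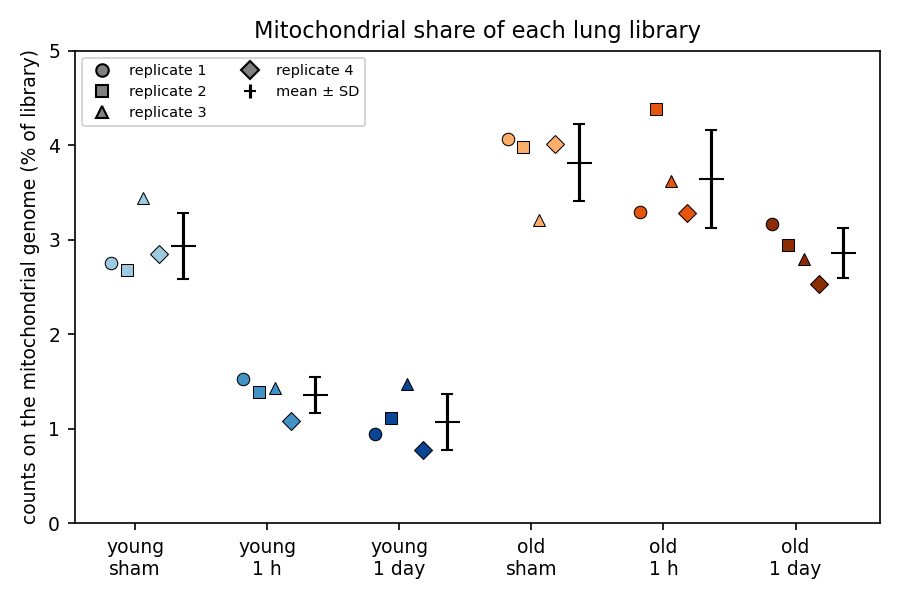
Percent of each library's counts that lie on the mitochondrial genome, for 6 groups of 4 lung libraries; symbols are replicates, and bars are mean ± SD. The 8 young reperfused libraries lie between 0.776% and 1.53%, and the other 16 between 2.53% and 4.38%.

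Messenger RNAs made up 95.9% to 98.1% of the mitochondrial counts. Per length, in TPM (reads scaled by transcript length and library), COX1 was the highest of them, with a mean over the 24 libraries of 11290 TPM, rank 3 of all genes in the table. CYTB averaged 6107 TPM and ATP6 4938 TPM. ND3 at 699.9 TPM and ND6 at 250.1 TPM were the lowest mRNAs. The rRNAs averaged 325 TPM (mt-Rnr1, the 12S rRNA) and 605 TPM (mt-Rnr2, the 16S rRNA), in libraries made from poly(A) RNA.

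COX1, the catalytic core of complex IV, was at 11870, 12100, 14630 and 12250 TPM in the 4 young sham libraries. It was at 7236, 6985, 6951 and 5506 TPM in young 1 h and at 4618, 5601, 6490 and 3705 TPM in young 1 day. Old sham had 15930, 16600, 15020 and 16520 TPM, old 1 h 13600, 18430, 15320 and 13650 TPM, and old 1 day 12320, 12970, 11550 and 11130 TPM. Young reperfused levels do not overlap young sham, and old 1 day levels are below all old sham levels.

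COX3, another core subunit of complex IV, moved least in young lungs. Young sham had 4051, 4035, 5093 and 4164 TPM, young 1 h 3493, 3155, 3255 and 2516 TPM, and young 1 day 2230, 2588, 3009 and 1816 TPM. Old sham had 5677, 5651, 4361 and 5591 TPM, old 1 h 4667, 6226, 5250 and 4713 TPM, and old 1 day 4189, 4042, 3668 and 3569 TPM. As TPM the young 1 h libraries are all below young sham. In CPM scaled between libraries the ranges overlap, and the log2 change was -0.20 ± 0.14 (SE).

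ATP8, a small membrane subunit of ATP synthase, stood at 4215, 4392, 5118 and 4314 TPM in young sham. It was at 629.9, 481, 564 and 344 TPM in young 1 h and at 257, 398, 738 and 250.1 TPM in young 1 day. Old libraries ranged from 4312 to 6152 TPM in sham, from 4563 to 6515 TPM at 1 h and from 3540 to 4745 TPM at 1 day. The highest young reperfused value is thus far below the lowest value of any other group.

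ATP6, the membrane subunit encoded on the same mRNA, was at 5567, 5678, 6693 and 5863 TPM in young sham and at 2385, 2112, 2295 and 1366 TPM in young 1 h. Young 1 day libraries had 1145, 1543, 2607 and 968 TPM. Since both are read from a shared mRNA, their ratio does not measure the level of that mRNA. The part of read coverage, base composition and shared bases in the ratio was not tested. The ratio of ATP8 to ATP6 had a mean of 0.758 ± 0.0161 (SD, n = 4) in the shams of young mice. At 1 h it was 0.247 ± 0.0152, and at 1 day 0.256 ± 0.0240. In the 3 old groups it stayed between 0.670 and 0.778 in each library. The ratio in the 8 young reperfused libraries ranged from 0.225 to 0.283.

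The other shared mRNA did not show this. ND4L to ND4 was 0.625 ± 0.0280 in the young shams and 0.609 ± 0.00346 in the old. Young lungs had 0.605 ± 0.0745 at 1 h and 0.566 ± 0.117 at 1 day. The young 1 day libraries spread from 0.457 to 0.725 and overlap young sham. COX3 to ATP6, which lie next to each other and share 1 base, went from 0.727 ± 0.0238 (young sham) to 1.56 ± 0.194 at 1 h and 1.66 ± 0.359 at 1 day. Old 1 h was at 0.759 ± 0.0193 and old 1 day at 0.665 ± 0.0219, on either side of old sham at 0.721 ± 0.0141.

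**Figure D2:**
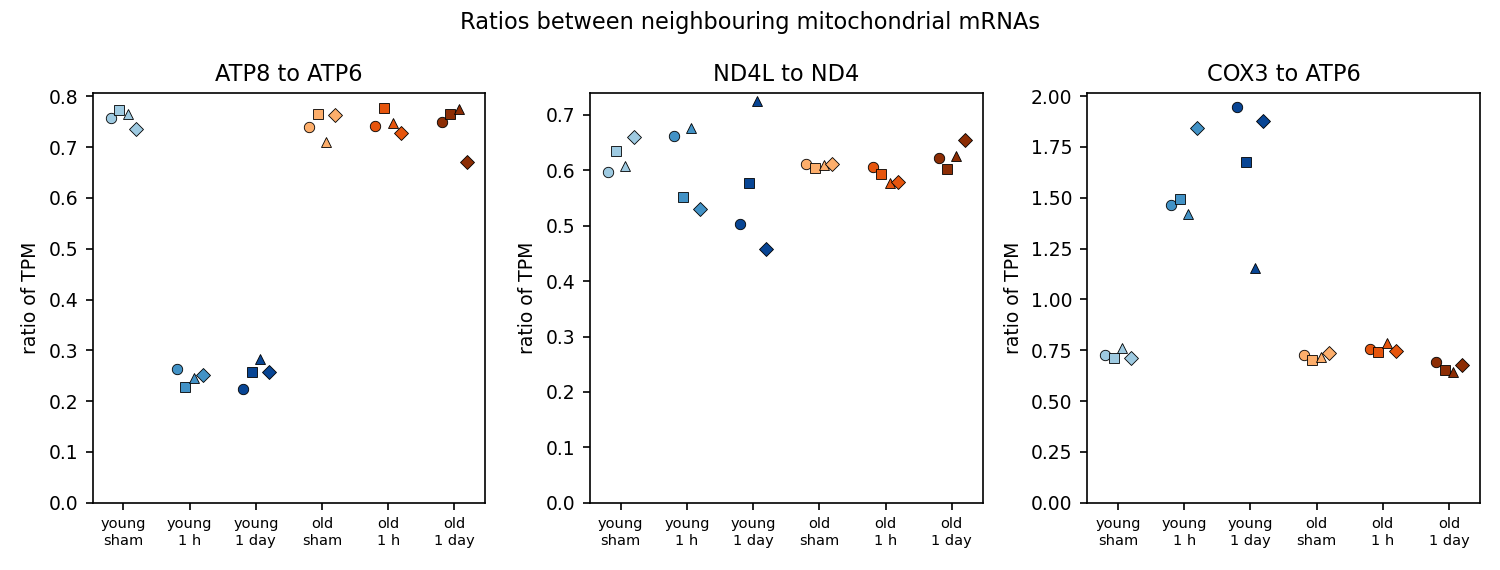
Ratio of TPM between neighbouring mitochondrial mRNAs in each library, by group; each symbol is a replicate. ATP8 to ATP6 lies between 0.225 and 0.283 in young reperfused libraries and above 0.670 elsewhere, while ND4L to ND4 overlaps between groups.

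ND2, a membrane subunit of complex I, was at 4140, 4108, 5013 and 4348 TPM in young sham and at 1103, 758, 1020 and 555 TPM at 1 h. At 1 day it was at 402, 535, 1171 and 312 TPM. Old sham had 5857, 5717, 4108 and 5704 TPM, old 1 h 4147, 6010, 4957 and 4662 TPM, and old 1 day 4066, 3768, 3479 and 2997 TPM. The ratio of COX1 to ND2 was 2.89 ± 0.0569 in the young shams and 8.13 ± 1.69 at 1 h, then 9.84 ± 2.93 at 1 day. It was 3.04 ± 0.418, 3.09 ± 0.144 and 3.38 ± 0.283 in old sham, 1 h and 1 day. The young reperfused libraries do not overlap any other group in this ratio.

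ND6, a complex I subunit and the only mRNA on the minus strand, had the lowest level of the 13 in young reperfused lungs. Young sham libraries were at 309.6, 308, 394 and 314 TPM. Young 1 h libraries were at 28.5, 23.5, 28.4 and 7.59 TPM and young 1 day libraries at 8.53, 9.78, 38.0 and 6.63 TPM. Old groups ranged from 355 to 504 TPM in sham, from 318 to 506 TPM at 1 h and from 255 to 343 TPM at 1 day. These young values rest on 53 to 422 estimated reads per library. Replicate 4 of young 1 h and replicate 3 of young 1 day stand apart from their groups, low and high respectively. ND6 to ND5, its neighbour on the other strand, had a ratio of 0.106 ± 0.00611 in the young shams. After reperfusion it was 0.0175 ± 0.00684 at 1 h and 0.0155 ± 0.00908 at 1 day, and it lay between 0.0970 and 0.123 in each old library.

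The other complex I mRNAs lay between these extremes. ND1, a membrane subunit, ranged from 5207 to 6184 TPM in young sham, from 1053 to 1858 TPM at 1 h and from 844 to 2271 TPM at 1 day. ND3 ranged from 797 to 1107 TPM in young sham, from 70.5 to 197 TPM at 1 h and from 52.9 to 234 TPM at 1 day. For both, the young 1 h and 1 day ranges overlap each other and lie below young sham. ND4, a proton-pumping subunit, had 3786 to 4719 TPM in young sham, 1703 to 2077 TPM at 1 h and 1140 to 1841 TPM at 1 day. ND4L had 2261 to 2867, 902 to 1373 and 521 to 1335 TPM in the same order, and ND5 2776 to 3584, 1048 to 1355 and 619 to 1307 TPM. In old lungs ND4 had 4153 to 5609 TPM in sham, 4131 to 6075 TPM at 1 h and 3481 to 4050 TPM at 1 day, so old 1 day lay below both other old groups in TPM, while in CPM it overlapped old sham.

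CYTB, the cytochrome b of complex III, ranged from 6628 to 8227 TPM in young sham, from 2601 to 3961 TPM at 1 h and from 1818 to 3878 TPM at 1 day. Its old libraries had 7159 to 9439 TPM in sham and 6334 to 6859 TPM at 1 day, without overlap in TPM but with overlap in CPM. COX2, which takes electrons from cytochrome c, had 4910 to 5889 TPM in young sham, 2276 to 3457 TPM at 1 h and 1699 to 3377 TPM at 1 day. The rRNA mt-Rnr2 was at 569, 561, 832 and 708 TPM in young sham, at 311, 216, 345 and 239 TPM at 1 h and at 200.1, 189, 269 and 156 TPM at 1 day. The rRNA mt-Rnr1 was at 278, 238, 339 and 301 TPM in young sham and at 63.2 to 161 TPM in the 8 young reperfused libraries. Neither rRNA overlapped young sham after reperfusion, and in old lungs the ranges of mt-Rnr1 at sham (363 to 561 TPM) and 1 day (273 to 686 TPM) overlapped.

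**Figure D3:**
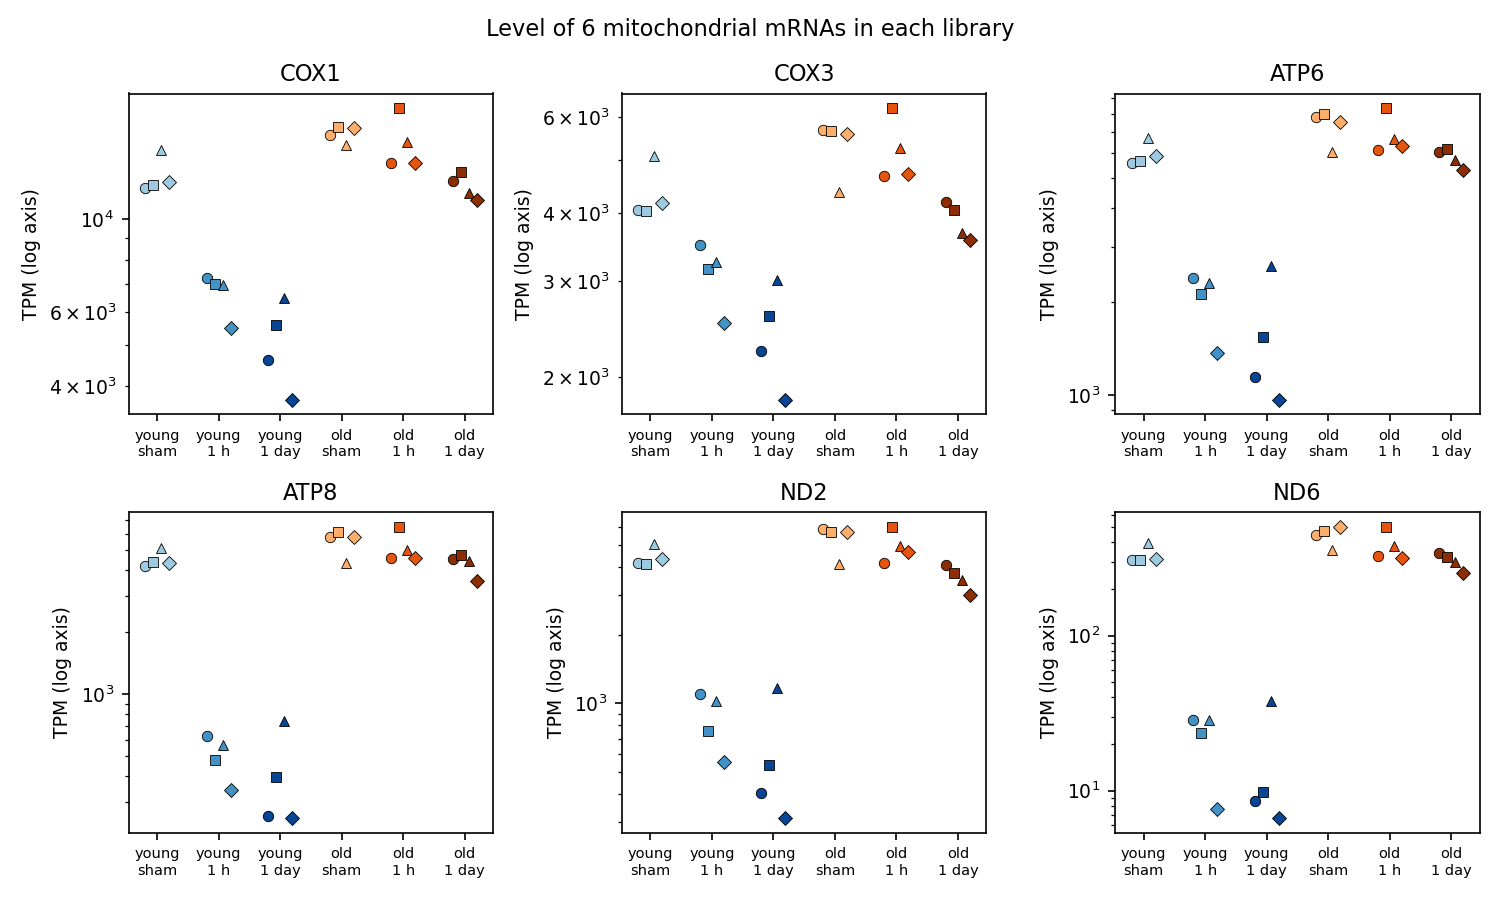
TPM on a log axis of COX1, COX3, ATP6, ATP8, ND2 and ND6 in each of 24 libraries, by group; each symbol is a replicate. COX3 in young 1 day libraries is at 1816 to 3009 TPM, and ND6 in the same libraries at 6.63 to 38.0 TPM.

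The log2 changes of the mRNAs from young sham spread over a wide range, and their order was by neither strand position nor complex alone. At 1 h they were -3.62 ± 0.42 (SE) for ND6, -2.88 ± 0.26 for ATP8, -2.33 ± 0.36 for ND3 and -2.08 ± 0.28 for ND2. ND1 was at -1.54 ± 0.22, ATP6 at -1.27 ± 0.21 and ND5 at -1.07 ± 0.16. ATP8 and ATP6 are read from a shared mRNA, so their unlike changes are not those of separate mRNAs. ND4L, ND4 and CYTB lay between -0.85 and -0.81, COX1 was at -0.65 ± 0.14, COX2 at -0.52 ± 0.15 and COX3 at -0.20 ± 0.14. The 3 mRNAs of complex IV were thus nearest to sham, and those of complex I ran from ND4 to ND6 over nearly the whole range. At 1 day all 13 were lower still, from -4.16 ± 0.43 for ND6 to -0.63 ± 0.14 for COX3. Without replicate 3 of young 1 day, ND6 was at -5.08, ATP8 at -3.68, ND3 at -3.40 and ND2 at -3.18. The rRNAs were at -1.01 ± 0.25 (mt-Rnr1) and -0.99 ± 0.21 (mt-Rnr2) at 1 h and at -1.58 ± 0.25 and -1.50 ± 0.21 at 1 day.

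Of the 34 genes that passed the filter on low counts (13 mRNAs, 2 rRNAs, 19 tRNAs), 25 were called lower at 1 h, where 20.1% of all 19690 genes were, and 31 at 1 day, where 26.0% were. A call here is an adjusted p under 0.05 in edgeR's quasi-likelihood test. Since the subject was chosen on these contrasts, nothing is read from the counts. COX3 was the only mRNA not called at 1 h. The libraries did not overlap for 24 genes that were lower at 1 h (20.5% of all genes) and for 30 at 1 day (24.1%). Against young 1 h, old 1 h lungs were higher by 0.68 ± 0.14 for COX3, 3.29 ± 0.27 for ATP8 and 4.04 ± 0.42 for ND6 on the log2 scale. At 1 day the same 3 genes were higher in old lungs by 0.57 ± 0.14, 3.29 ± 0.27 and 4.15 ± 0.43. Of the 34 genes, 32 were called higher in old lungs at 1 h (20.5% of all genes) and 33 at 1 day (25.1%). The difference between the ages in the change from sham was called above 0 for 21 genes at 1 h (8.07% of all genes) and for 23 at 1 day (15.2%). These contrasts, too, were used in choosing the subject.

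**Figure D4:**
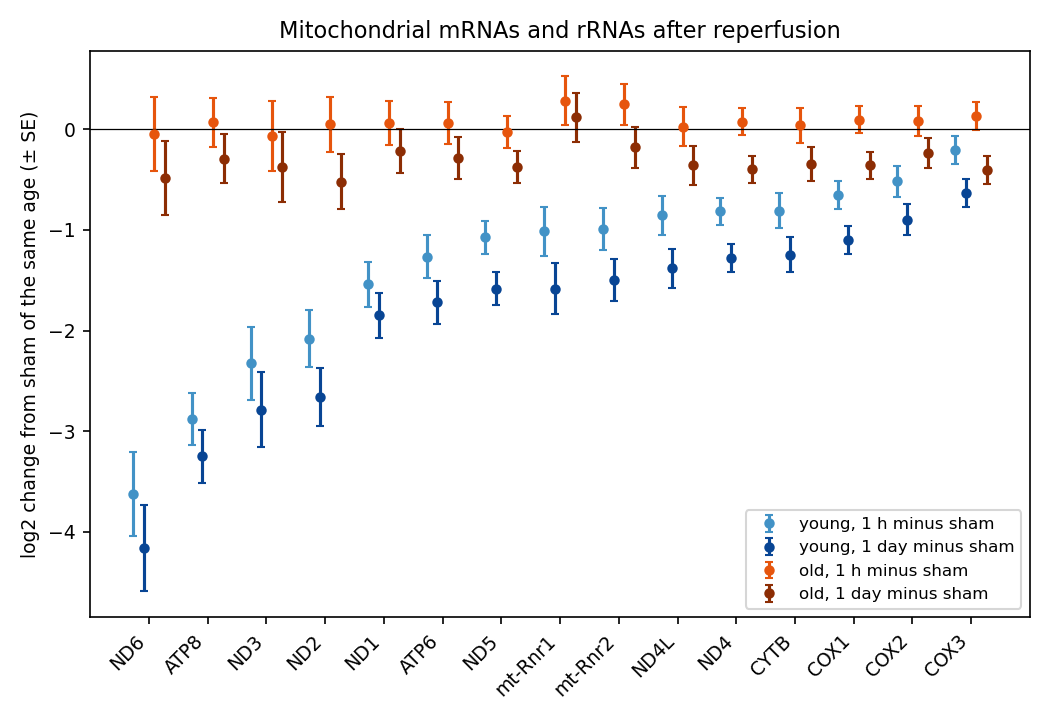
Log2 change from sham of the same age (edgeR, ± SE) of the 13 mitochondrial mRNAs and 2 rRNAs, in young and old lungs at 1 h and 1 day, ordered by the change in young lungs at 1 h. Young values run from -3.62 for ND6 to -0.20 for COX3 at 1 h, and old 1 h values lie between -0.07 and 0.28.

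Base composition went with the size of the change among the mRNAs. Spearman's rho between the change and the GC content was 0.76 over the 13 mRNAs in young 1 h lungs, against 0.47 for length, 0.63 for the mean TPM and -0.01 for position along the genome. The mean TPM includes the young reperfused libraries, so its rho is in part built in. The mRNAs share libraries, precursors and overlapping reads, so these are descriptions without a p. Over the 12 mRNAs of the plus strand rho was 0.72 for GC, 0.79 for G alone and -0.70 for A. Over all 13, with ND6, it was 0.41 for G and -0.34 for A. ND6, which fell most (-3.62), had the highest G (28.1%) and the lowest A (22.2%) of the 13. GC did not order all of them. ND4 with 35.6% GC was at -0.81 and ND2 with 35.7% was at -2.08. ND4L, with the highest GC content of 41.1%, was at -0.85, below COX3 with 38.9%. ND4 is 9.80% G and ND2 8.00% G.

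Nuclear genes showed a trend of the same sign in the same libraries. Over 16290 nuclear genes, Spearman's rho between GC content and a library's log2 level, centred on each gene's average, ranged from 0.322 to 0.469 in the young 1 h libraries. The young 1 day libraries had 0.202 to 0.468, and the young shams -0.353 to -0.252. Among old libraries the shams had -0.37 to -0.285, those at 1 h -0.299 to -0.179, and those at 1 day -0.203 to -0.033. Young 1 h replicate 4, with the lowest mitochondrial share of its group, had the highest value of its group, 0.469. Young 1 day replicate 3, with the highest share of its group, had the lowest, 0.202. Its sign separates the young reperfused libraries from all others, so a technical and a biological origin of the trend cannot be told apart. The part of this trend in the mitochondrial levels was not tested as a cause.

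The mitochondrial mRNAs can be set beside nuclear genes of like composition. At 1 h in young lungs, 20 nuclear genes under 35% GC had a median log2 change of -1.05 (quartiles -1.56 and -0.69), and ATP8, ND3 and ND6 in that range were at -2.88, -2.33 and -3.62. The 149 nuclear genes from 35% to 37.5% GC had a median of -0.93 (quartiles -1.32 and -0.56). Of the 4 mRNAs in that range, ND4, ND5 and ATP6 lay between these quartiles, and ND2 lay below. From 37.5% to 40% GC the median of 540 nuclear genes was -0.76 (quartiles -1.07 and -0.45), and CYTB, COX1 and COX2 lay between them, ND1 below and COX3 above. ND4L, in the range from 40% to 42.5% GC, was at -0.85, just below the lower quartile of -0.81 of 1135 nuclear genes. At 1 day the medians in the first 3 ranges were -1.44, -1.12 and -0.83. At that time ND6, ATP8, ND3, ND2, ATP6, ND5, ND1, CYTB and ND4L lay below the lower quartile of their range. ND4, COX1, COX2 and COX3 lay between the quartiles.

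With each library's GC trend removed, fitted on nuclear genes, the young 1 h changes were -2.47 for ND6, -1.48 for ATP8, -1.07 for ND3, -1.06 for ND2 and -0.69 for ND1. The sign turned for COX1 (0.004), ND4 (0.249), COX2 (0.251), COX3 (0.541) and mt-Rnr2 (0.078). At 1 day ND6 was at -3.03, ATP8 at -1.86, ND2 at -1.64 and ND3 at -1.55, and COX3 turned to 0.173. The median over the 34 genes went from -1.16 to -0.325 at 1 h and from -1.74 to -0.946 at 1 day. The trend under 35% GC rests on the 20 nuclear genes there.

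**Figure D5:**
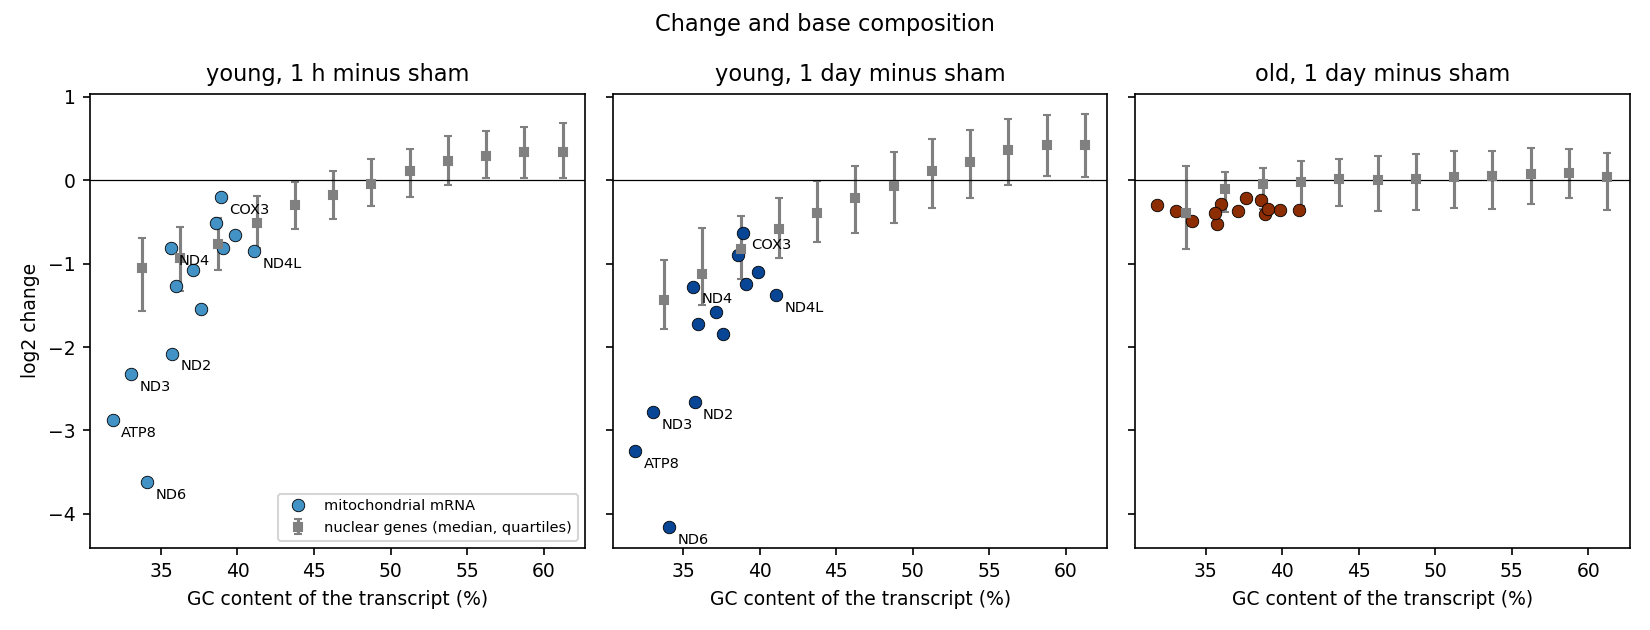
Log2 change from sham against the GC content of the transcript for 13 mitochondrial mRNAs (circles) and for nuclear genes in bins of GC (squares, median; bars, quartiles), in young 1 h, young 1 day and old 1 day lungs; the outermost squares are open-ended bins. In both young panels ND6, ATP8, ND3, ND2, ND1 and ND4L lie below the nuclear quartiles of their bin. In young 1 day lungs ATP6, ND5 and CYTB do so too. In old 1 day lungs the mRNAs lie between -0.52 and -0.21.

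The 10 nuclear genes whose log2 level ran most closely with the summed mitochondrial mRNAs over the 24 libraries were Ppp1cb, Matr3, Sub1, Sclt1, Vbp1, Zup1, Rap1a, Ugp2, Srsf10 and Pcnp, with Pearson's r from 0.965 to 0.975. Ppp1cb is a catalytic subunit of protein phosphatase 1, and Matr3 is a nuclear matrix protein that binds RNA. Their GC content was 35.5% to 43.2%, and the libraries differ in their GC trend, so the likeness is a description.

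In old lungs at 1 h no mitochondrial gene passed the test against old sham. The 13 mRNAs lay between -0.07 and 0.13 on the log2 scale, the 2 rRNAs were at 0.28 ± 0.24 (mt-Rnr1) and 0.25 ± 0.21 (mt-Rnr2), and 0 of 34 genes were called by edgeR, where 25.2% of all genes were. None of the 34 had an unadjusted p under 0.05 in edgeR, and DESeq2 and limma on log2 TPM also called 0. With standard errors of 0.13 to 0.37 for the mRNAs, small changes would not have been detectable.

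For 7 of the 34 genes the libraries of old 1 day and old sham did not overlap, all lower, against 14.6% of all genes. At 1 day in old lungs 33 of the 34 genes were below old sham, and 5 fell past the threshold, against 16.3% of all genes called lower. COX1 fell by 0.36 on the log2 scale (SE 0.14, edgeR adjusted p = 0.0444). COX3 fell by 0.40 (SE 0.14, edgeR adjusted p = 0.0285) and ND4 fell by 0.40 (SE 0.13, edgeR adjusted p = 0.0246). The tRNAs TrnM and TrnS1 fell by 0.59 (edgeR adjusted p = 0.0405) and 0.45 (edgeR adjusted p = 0.0141). With the GC trend removed ND4 was at -0.27 (edgeR adjusted p = 0.0535).

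The share of 5 in 34 is near the background. The 2 genes lowest in young lungs did not pass here: ND6 was at -0.48 ± 0.37 (edgeR adjusted p = 0.327) and ATP8 at -0.29 ± 0.24 (edgeR adjusted p = 0.37). ND2 was at -0.52 ± 0.27 (edgeR adjusted p = 0.147), mt-Rnr1 at 0.12 ± 0.24 and mt-Rnr2 at -0.18 ± 0.21. Over the 13 mRNAs rho between change and GC content was 0.25. The count was 1 without old 1 day replicate 4, 2 without old sham replicate 1, 3 without old sham replicate 4 or old 1 day replicate 3, and 8 without old sham replicate 3. Fitted on these groups alone it was 13, with ND2 (edgeR adjusted p = 0.0321) and ND6 (edgeR adjusted p = 0.0249) among them, while TrnM was lost (edgeR adjusted p = 0.123). TrnM was also lost with the replicate number as a block (edgeR adjusted p = 0.0583). For the counts under other settings the share of all genes called is not given here, so they are not compared with it.

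All 13 mRNAs were lower at 1 day than at 1 h at both ages, though not all passed the test. In old lungs 9 of 34 genes fell, against 20.9% of all genes called lower: COX1 (-0.45 ± 0.14, edgeR adjusted p = 0.00992), COX3 (-0.53 ± 0.14, edgeR adjusted p = 0.00356), ND4 (-0.47 ± 0.13, edgeR adjusted p = 0.00676) and 6 tRNAs. Of these, TrnM fell by 0.96 (edgeR adjusted p = 0.00143). All 34 genes were below the 1 h value, and for 22 the libraries did not overlap, against 17.6% of all genes that were lower without overlap. The count was 14 with the GC trend removed, 14 by DESeq2 and 20 fitted on these groups alone. The share of all genes called under those settings is not given here, so these 3 counts are not compared with it.

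In young lungs 11 of 34 genes fell from 1 h to 1 day, against 22.1% of all genes called lower. They were COX1 (-0.45 ± 0.14, edgeR adjusted p = 0.00959), COX2 (-0.38 ± 0.15, edgeR adjusted p = 0.045), COX3 (-0.43 ± 0.14, edgeR adjusted p = 0.0153), CYTB (-0.44 ± 0.17, edgeR adjusted p = 0.04), ND4 (-0.46 ± 0.13, edgeR adjusted p = 0.00737), ND4L (-0.53 ± 0.19, edgeR adjusted p = 0.0285), ND5 (-0.51 ± 0.16, edgeR adjusted p = 0.0121), mt-Rnr2 (-0.51 ± 0.21, edgeR adjusted p = 0.0493) and 3 tRNAs. TrnM fell by 1.26 (edgeR adjusted p = 1.85e-04). Of the 8 mRNA and rRNA calls, those of COX2, CYTB, ND4L and mt-Rnr2 were lost without the low-count filter (edgeR adjusted p = 0.0556 to 0.0904). Those of COX2, CYTB and ND4L were also lost when fitted on these groups alone, and those of COX2, CYTB and mt-Rnr2 by limma. The mRNAs lay between -0.58 (ND2) and -0.31 (ND1), a narrower range than that of their distances from sham. For 4 genes the libraries did not overlap, against 16.4% of all genes that were lower without overlap. Counts rested on single libraries: 23 genes were called without young 1 day replicate 3, which had the highest mitochondrial share of its group, 7 without young 1 h replicate 3 or young 1 day replicate 1, and 5 without young 1 h replicate 1 or young 1 day replicate 4. The share of all genes called without those libraries is not given here.

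Between the sham groups all 34 genes were higher in old lungs, with a median log2 difference of 0.46, where the median of all genes was 0.007. The median was 0.345 for the 13 mRNAs and 0.811 for the 19 tRNAs. Sparse tRNAs can pass the filter on low counts through the old libraries alone, which favours a higher old level. The 34 genes share libraries and scaling, so their common direction is not 34 separate observations. Only TrnM passed (0.87 ± 0.22, edgeR adjusted p = 0.0383), against 1.09% of all genes called higher. It was lost when fitted on these groups alone (edgeR adjusted p = 0.117), where mt-Rnr1 passed (edgeR adjusted p = 0.0351), with the replicate block (edgeR adjusted p = 0.0591), and without old sham replicate 1 or 4 or without young sham replicate 1, 2 or 3, and 3 genes were called without old sham replicate 3. The mRNAs lay between 0.25 (ND1) and 0.47 (ND6), and mt-Rnr1 was at 0.74 ± 0.24 (edgeR adjusted p = 0.133). For 6 genes the sham groups did not overlap, against 6.75% of all genes that were higher without overlap.

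The 22 tRNAs, 59 to 75 bases long, had few reads. TrnS1 (serine) had the most, 591 to 2359 estimated reads per library, then TrnL1 (leucine) with 238 to 1556. TrnS1 shares 3 bases with the end of COX1 on the opposite strand. TrnF, TrnH and TrnS2 had at most 11, 4 and 2 reads in any library and did not pass the filter. The 19 others lay between -3.50 (TrnE, glutamate) and -0.24 (TrnS1) in young 1 h lungs and between -4.36 (TrnE) and -0.81 (TrnS1) at 1 day, relative to young sham. TrnE lies next to ND6 on the minus strand, at chrM:14071-14139. Both were the furthest from sham of their class.

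Summed levels of some cell type markers differed between groups, among them those of cardiac muscle and brown fat, which are rich in mitochondria. The summed level of 10 cardiac muscle markers ranged from 337 to 1442 CPM in the young shams, with 951 to 4615 at 1 h and 84.4 to 1249 at 1 day; all 10 were present. Old shams had 628 to 2889 CPM, with 2232 to 4436 at 1 h and 65.4 to 501 at 1 day, so old 1 day lies below old sham without overlap, as the mitochondrial share does. By edgeR, 3 of the 10 were called lower in old 1 day (36.3% of all genes called) and 0 in old 1 h (25.2%). In young lungs 1 was called higher at 1 h (41.3%) and 0 were called at 1 day (53.9%). The 5 brown fat markers summed to 3.58 to 57.8 CPM over all libraries, with Ucp1 and Elovl3 at 0 in all young 1 h libraries. In young lungs the cardiac markers were highest at 1 h, where mitochondrial levels were below sham. Neutrophil markers (5 genes) summed to 294 to 569.5 CPM in the young shams and to 811 to 1760 at 1 h, while young 1 day libraries had 301 to 644. In old lungs they summed to 616 to 791 CPM in sham, 1197 to 5783 at 1 h and 419 to 4561 at 1 day. There 5 of 5 rose at both times, where 25.2% of all genes were called at 1 h and 36.3% at 1 day. Type 2 cell markers had 17770 to 21920 CPM in young sham, 16870 to 22120 at 1 h and 22880 to 29220 at 1 day. Their old libraries had 13630 to 19070 CPM in sham, 7578 to 12570 at 1 h and 7752 to 14710 at 1 day, so old 1 h lay below old sham. By edgeR, 2 of the 5 were called lower in old 1 h and 1 in old 1 day lungs. In young lungs 2 were called lower at 1 h (41.3% of all genes called) and 1 higher at 1 day (53.9%). Of 4 markers of type 1 cells, the flat cells of the alveolus, 4 fell in old lungs at 1 h and 3 at 1 day. Of all genes 25.2% were called at 1 h in either direction, and 16.3% were called lower at 1 day. Club cell markers, of secretory airway cells, all fell at 1 day at both ages (3 of 3), against 26.0% of all genes in young and 16.3% in old lungs. The part of these cells in the results was not tested.

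Nuclear genes that act on mitochondrial RNA did not move as a block. Of 32 genes for mitochondrial transcription and RNA processing, 6 rose and 16 fell at 1 h in young lungs (median log2 change -0.36, all genes 0.015), where 41.3% of all genes were called. At 1 day 12 rose and 12 fell, where 53.9% of all genes were called. Without the GC trend 3 rose and 11 fell at 1 h, and 13 rose and 4 fell at 1 day. In old lungs 2 rose and 6 fell at 1 h, close to the 25.2% of all genes called, and 8 rose and 1 fell at 1 day, where 36.3% were.

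Polrmt, the mitochondrial RNA polymerase, rose in young lungs by 0.55 ± 0.10 at 1 h (edgeR adjusted p = 1.86e-04) and by 1.14 ± 0.10 at 1 day (edgeR adjusted p = 1.01e-08). The 1 h call was lost with the GC trend removed (0.222, edgeR adjusted p = 0.0803) and by limma. Its partner Tfb2m, which opens the promoter, fell by 1.05 at 1 h (edgeR adjusted p = 3.28e-07) and by 1.22 at 1 day (edgeR adjusted p = 1.58e-08). Tfam, which packs mitochondrial DNA and helps start transcription, was at -0.24 (edgeR adjusted p = 0.0612) and -0.14 (edgeR adjusted p = 0.258), and at 0.002 and 0.149 with the GC trend removed. At 1 h it was called lower under 6 other settings, among them DESeq2 (-0.253, adjusted p = 0.0383) and limma (-0.479, adjusted p = 0.00103).

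Mtpap, the mitochondrial poly(A) polymerase, fell in young lungs by 0.91 at 1 h (edgeR adjusted p = 1.32e-05) and by 1.14 at 1 day (edgeR adjusted p = 3.59e-07). Its level was 24.5 ± 0.709 CPM (SD, n = 4) in the young shams, 8.86 to 15.9 CPM at 1 h and 9.22 to 13.7 CPM at 1 day. It lay between 21.5 and 27.8 CPM in every old library. Slirp rose by 0.39 at 1 h (edgeR adjusted p = 0.0125) and by 1.06 at 1 day (edgeR adjusted p = 2.24e-07), and Lrpprc was at 0.03 (edgeR adjusted p = 0.815) and rose by 0.42 at 1 day (edgeR adjusted p = 7.64e-04). By limma on log2(TPM + 1), Slirp at 1 h was at 0.113 (adjusted p = 0.41) and Lrpprc at 1 day at 0.176 (adjusted p = 0.14), and neither was called. Pnpt1, which degrades mitochondrial RNA, fell by 0.59 at 1 h (edgeR adjusted p = 3.65e-04) and was at 0.007 with the GC trend removed. At 1 day it was at -0.26 (edgeR adjusted p = 0.0683) and turned to 0.384 with that trend removed (edgeR adjusted p = 0.00161). Pde12, which removes poly(A) tails in mitochondria, rose at 1 h at both ages, by 1.59 in young (edgeR adjusted p = 1.50e-09) and 1.58 in old lungs (edgeR adjusted p = 5.62e-09).

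Among 14 regulators of mitochondrial biogenesis, 4 rose and 1 fell in young 1 h lungs, 5 rose in old 1 h lungs, 4 rose and 6 fell in young 1 day lungs, and 2 rose and 3 fell in old 1 day lungs. Of all genes 41.3% were called in young 1 h, 25.2% in old 1 h, 53.9% in young 1 day and 36.3% in old 1 day lungs, so the young 1 h count was below that share. Ppargc1a, the coactivator PGC-1alpha, rose at 1 h by 1.76 ± 0.27 in young (edgeR adjusted p = 2.39e-05) and 1.74 ± 0.27 in old lungs (edgeR adjusted p = 8.46e-05). At 1 day it fell by 1.36 (edgeR adjusted p = 3.31e-04) and 1.01 (edgeR adjusted p = 0.00655). Ppargc1a is also on the list of brown fat markers. Pprc1, a related coactivator, rose at 1 h by 1.57 in young (edgeR adjusted p = 1.01e-07) and 1.26 in old lungs (edgeR adjusted p = 5.63e-06).

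Most nuclear partners of the mitochondrial mRNAs rose in young lungs. Of 79 nuclear subunits of the respiratory chain and ATP synthase, 45 rose and 4 fell at 1 h (39 and 6 with the GC trend removed), and 58 rose and 3 fell at 1 day (61 and 4). Of all genes, 21.2% rose at 1 h and 27.9% at 1 day. Their median log2 change was 0.34 at 1 h and 0.61 at 1 day, where that of the 13 mitochondrial mRNAs was -1.07 and -1.58. With the GC trend removed the nuclear medians were 0.264 and 0.458, and the median mRNA, ATP6 at both times, was at -0.26 and -0.691, with 4 of 13 mRNAs above 0 at 1 h and 1 at 1 day. Uqcrq, a small subunit of complex III, rose by 1.49 at 1 day (edgeR adjusted p = 9.23e-10), Atp5d of ATP synthase by 1.22 (edgeR adjusted p = 9.56e-10) and Cox6a1 of complex IV by 1.06 (edgeR adjusted p = 4.39e-10). In old lungs 11 rose and 1 fell at 1 h, where 12.6% of all genes rose, and 14 rose and 1 fell at 1 day, where 36.3% were called in either direction. The change from sham at 1 day was lower in old than in young lungs for 46 of the 79 and higher for 0, against 15.2% of all genes lower in that test, and for 43 with the GC trend removed. At 1 h it was lower for 26 and higher for 2, against 9.46% lower, and for 12 and 0 with that trend removed.

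Of 79 mitochondrial ribosomal proteins, 19 rose and 19 fell in young 1 h lungs and 57 rose and 2 fell in young 1 day lungs. Of all genes 21.2% rose and 20.1% fell at 1 h, near the counts at that time, and 27.9% rose and 26.0% fell at 1 day. In old lungs 1 rose and 13 fell at 1 h, where 25.2% of all genes were called, and 29 rose and 1 fell at 1 day, where 36.3% were. Mrpl17 rose by 1.26 (edgeR adjusted p = 3.90e-09) and Mrpl12, a subunit that also binds Polrmt, by 0.99 (edgeR adjusted p = 4.58e-09) in young 1 day lungs. At 1 day the change was lower in old than in young lungs for 27 of the 79 and higher for 3. With the GC trend removed it was lower for 25 and higher for 0. Of all genes 15.2% were called lower and 15.2% higher in that comparison. Of 15 mitophagy genes, 6 rose and 2 fell in young 1 h lungs and 6 rose and 1 fell in old 1 h lungs, among them the adaptor Sqstm1 (1.29 in young, edgeR adjusted p = 1.37e-08, and 0.99 in old lungs, edgeR adjusted p = 1.43e-06). At 1 day 3 rose and 4 fell in young lungs, and 4 rose and 2 fell in old lungs. The young 1 day count of 7 was below the 53.9% of all genes called, and the others stand against 41.3% (young 1 h), 25.2% (old 1 h) and 36.3% (old 1 day).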

How the data were processed

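Poly(A) RNA of 24 lung libraries was sequenced with a stranded kit, per the labels' protocols. The submitters' processing notes name HISAT2, StringTie and mm10/GRCm38. The table deposited by the authors holds estimated read counts, FPKM and TPM per RefSeq transcript. Of low estimated counts, 98.93% to 99.48% per library equal the deposited FPKM times length rounded up, so these are expected counts rather than raw counts. The deposited TPM were used for levels between genes, and the deposited FPKM for that check.

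Transcripts (129299) were summed by gene symbol. Estimated counts were tested in edgeR 4.0.16 (quasi-likelihood, TMM, filterByExpr with a minimum count of 10, 6 group means over 24 libraries, Benjamini-Hochberg over 19690 genes, adjusted p under 0.05); the log2 changes are from this fit. The 2-sided exact permutation tests used scipy 1.17.1. Base composition came from GENCODE vM21 transcripts (16290 nuclear genes tested had a value), and the GC alternative removed each library's lowess trend (span 0.3). DESeq2 1.42.0 and limma 3.58.1 on log2(TPM + 1) and log2(TPM + 0.1) were alternatives, as were other filters, scalings, a replicate block and leaving out each library. The code was tested on counts simulated with known changes in old 1 day against old sham. It recovered 35.4% of 99 genes changed by 1 on the log2 scale and 98.9% of 95 changed by 2. There were 7 false calls. The members and nuclear lists were chosen with earlier results of these data known. All 37 members are accounted for; named nuclear genes are from the 3 with the smallest p of each list and comparison and 7 always named. Genes most like the summed mRNAs are the 10 with the highest Pearson's r of log2(CPM + 0.5). Intervals and depths cover counting error only.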

Additional observations from a re-analysis of the deposited data

Results flagged for a closer look

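In 96 groups of 4 libraries examined for a library far from the other 3, of which chance alone gives about 1 in 20, 8 were found. Old sham replicate 3 was low in 6 of them. Its mitochondrial share was 3.207%, where the others were at 3.977% to 4.07%. In CPM it had 1500 for COX3 (others 1950 to 2040), 3593 for CYTB (others 4683 to 4883), 1870 for ND2 (others 2635 to 2786), 2511 for ND4 (others 3431 to 3451) and 329.6 for ND4L (others 446.3 to 454.6). Young sham replicate 3 was high for ATP8, at 460.6 CPM where the others were at 376.3 to 384.5. Young 1 day replicate 3 was high for ND6, at 9.601 CPM where the others were at 1.822 to 2.538; the same library had the weakest GC trend of its group, 0.202, and that trend's part was not tested.

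In CPM, for both rRNAs every old 1 h library was above the mean of old sham and every young 1 h library below the mean of young sham. In TPM the lowest old 1 h library was below the old sham mean. It was at 449.9 against 466.2 TPM for mt-Rnr1 and at 738.6 against 853.2 TPM for mt-Rnr2. Neither rRNA was called in old 1 h against old sham. In edgeR the difference between the ages was 1.30 ± 0.34 (log2, SE) for mt-Rnr1 and 1.24 ± 0.29 for mt-Rnr2, contrasts behind the choice of these genes and so given without a p. In counts the change from sham differed between the ages by 103.982 CPM for mt-Rnr1 and by 342.194 CPM for mt-Rnr2.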

How the results depend on the processing

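Each library was left out in turn, and scaling, filter, tool, GC trend and block were varied. Of values of single genes under other settings, 839 kept direction and side of the threshold or their size, 53 changed in size, 34 were lost, 15 gained and 13 turned sign. Without single libraries 786 kept them, 7 changed in size, 49 were lost, 4 gained and 2 turned sign. Mitochondrial genes called numbered 13 for old 1 day against old sham fitted on those groups alone. For old against young sham they numbered 3 on those groups alone (TrnM not among them) and 3 by DESeq2, 2 by limma on log2(TPM + 1) and 0 on log2(TPM + 0.1). For old 1 day against old 1 h they numbered 14 without the GC trend, 14 by DESeq2 and 20 on those groups alone; for young 1 day against young 1 h, 7 without a filter. Without single libraries the counts were 1 to 8 (old 1 day against sham), 0 to 3 (old against young sham), 6 to 9 (old 1 day against 1 h) and 5 to 23 (young 1 day against 1 h). The shares of all genes called under these settings, the replicate block included, are not given here. The counts are therefore not compared with them. This holds also for the nuclear lists with the GC trend removed.

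Medians over the 34 genes changed as follows. Young 1 h against sham was -0.325 without the GC trend, -1.589 by limma on log2(TPM + 1) and -1.649 on log2(TPM + 0.1). Young 1 day against sham was -0.946 and, on log2(TPM + 0.1), -2.184. Old against young was 1.087 at 1 h and 1.129 at 1 day without the GC trend, and 2.405 at 1 day on log2(TPM + 0.1). The difference between ages in the change was 0.452 at 1 h and 0.598 at 1 day without the GC trend, and 1.862 at 1 day on log2(TPM + 0.1). Without single libraries young 1 day ranged from -2.145 to -1.612, old against young at 1 day from 1.693 to 2.177, and the difference between ages at 1 day from 1.132 to 1.641. The TPM scale shifted the median of all genes at 1 h in young lungs to -0.171 and -0.251 for the 2 pseudocounts.

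Without the GC trend the sign turned at 1 h in young lungs for COX1 (0.004), COX2 (0.251), COX3 (0.541), ND4 (0.249), mt-Rnr2 (0.078), Tfam (0.002) and Pnpt1 (0.007), and at 1 day for COX3 (0.173), Tfam (0.149) and Pnpt1 (0.384). Lrpprc at 1 h was -0.002 without a filter, -0.227 and -0.242 by limma, and -0.01 to 0.079 without single libraries. Apart from that construction, the cause was not tested. Same-numbered libraries correlated over 0.1 in at most 2 of 4 pairs, with r up to 0.423 between young 1 day and young 1 h. Pairing by number is thus neither shown nor excluded, and the main fit did not use it. With the replicate as a block, 0, 4, 1, 9 and 12 genes were called in old 1 h and old 1 day against sham, old against young sham, and 1 day against 1 h in old and young lungs, and TrnM was lost for old 1 day against sham (edgeR adjusted p = 0.0583). TrnM, old against young sham, had a block adjusted p of 0.0591 in edgeR. Depth limits ND6 and the tRNAs in young reperfused lungs.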

Other observations

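Of 14 RNAs without a poly(A) tail, 11 were in the table and 3 passed the filter. Rn7sk, which holds back a transcription elongation factor, rose in young lungs by 1.69 at 1 h (edgeR adjusted p = 8.84e-05) and by 1.29 at 1 day (edgeR adjusted p = 8.74e-04). Rn7s1 and Rn7s2, near-identical copies whose reads cannot be assigned with certainty, rose by 1.36 (edgeR adjusted p = 0.0292) and 1.37 (edgeR adjusted p = 0.0288) at 1 h. In old lungs 0 of the 3 passed by edgeR against old sham at either time, with the smallest adjusted p 0.169 for Rn7sk at 1 h. Of all genes 25.2% were called there at 1 h and 36.3% at 1 day. In young lungs 3 of the 3 were called higher at 1 h and 1 at 1 day, where 21.2% and 27.9% of all genes were. With the GC trend removed, 1 of 3 remained in young lungs at each time. The summed level of the 11 was 1.69 to 3.06 CPM in the young shams and 3.78 to 11.7 CPM at 1 h. Of 7 RNAs held in the nucleus, 2 rose and 2 fell at 1 h in young lungs, where 41.3% of all genes were called. With the GC trend removed, 1 rose and 2 fell of the 6 that had a GC value.

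Of 13 genes for replication and packaging of mitochondrial DNA, 2 rose and 7 fell at 1 h in young lungs, where 41.3% of all genes were called, and 5 rose and 2 fell at 1 day, where 53.9% were, about the same share. In old lungs 0 rose and 3 fell at 1 h, near the 25.2% of all genes called, among them the helicase Twnk by 0.56 (edgeR adjusted p = 0.00194) and the single-strand binding protein Ssbp1 by 0.49 (edgeR adjusted p = 7.67e-04). Rrm2b, a subunit of ribonucleotide reductase that supplies nucleotides outside S phase, fell in young lungs by 1.00 at 1 h (edgeR adjusted p = 4.24e-08) and by 1.21 at 1 day (edgeR adjusted p = 1.01e-09). Atad3a, a membrane ATPase near the nucleoid, rose at 1 day by 1.26 in young (edgeR adjusted p = 4.89e-08) and 0.86 in old lungs (edgeR adjusted p = 2.52e-05).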
